A study of Mus musculus with 8 samples.

Results

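Expression of 31 genes of de novo lipogenesis and triglyceride synthesis was followed in the epididymal fat of 8 mice. The genes were chosen by symbol from a list of enzymes and regulators, and every probe set annotated to 1 of those symbols alone was taken. The list matched 68 of the 45101 probe sets of the array, from 30 of the 31 genes. After a filter on dim probe sets, 29 of the 11232 genes tested were on the list. No probe set is listed under G6pdx alone, and all probe sets of Pklr, the pyruvate kinase of liver and red cells, were below the filter. Probe sets were matched to the list by symbol and not by level, but the genes were chosen with earlier results of these data known.

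All mice were male C57BL/6J, bought at 6 weeks of age, and each was measured on 1 array (Affymetrix Mouse Genome 430 2.0). The 2 chow mice ate a diet in which fat gave 10% of the energy, for 24 weeks. The other 6 ate a high-fat diet (HFD) with 30% of the energy from fat for the same time. These were randomized to 3 groups of 2, which for the following 5 weeks received HFD alone, HFD with telmisartan or HFD with candesartan. Each drug was given in the drinking water at about 3 mg/kg per day. Telmisartan and candesartan are blockers of the angiotensin II receptor used against high blood pressure, and telmisartan is also known as a partial agonist of PPARγ, the main transcription factor of fat cells. No transgene, knockout or pooling of animals is stated, and with 1 dose of each drug and 2 mice per group the precision is low.

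De novo lipogenesis turns carbohydrate carbon into fatty acids. Citrate leaves the mitochondrion and is cleaved to acetyl-CoA, acetyl-CoA carboxylase makes malonyl-CoA, and fatty acid synthase builds palmitate from it with NADPH. Elongases and desaturases modify the product, and acyltransferases join acyl chains to glycerol to form triglyceride. In fat tissue the programme is driven by insulin and glucose through the transcription factors SREBP (gene Srebf1) and ChREBP (gene Mlxipl), and feeding on fat is known to lower it.

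Transcription factors are known to bind short promoter motifs, so the promoters were searched for 4 of them. Binding by SREBP or ChREBP was not tested. RefSeq promoters (GRCm38.p6, 250 bases before to 50 after a start) were matched by symbol for 26 of the 31 genes, with 34 starts in all. On either strand, the E-box CACGTG stood in 5 of these 34 promoters (14.7%) and in 7.15% of all 32851 promoters. The CCAAT box stood in 20 of the 34 (58.8%) against 37.4% of all promoters. The GC box GGGCGG stood in 17 of the 34 (50%) against 35.7%. The sterol element TCACNCCAC stood in 1 of the 34, a promoter of Mlxipl, and in 1.24% of all promoters. Some genes have several starts, so these promoters are not all separate genes, and a match describes the letters only. The promoters below are the 250 bases before the start of 2 genes that fell with HFD (Thrsp, Mlxipl) and of the 2 genes that differed most between the chow mice (Acss2, Pnpla3), printed 5′ to 3′ on the gene's strand. Capitals mark any of the 4 motifs or its reverse complement.
Thrsp, chr7:97417551-97417800, minus strand: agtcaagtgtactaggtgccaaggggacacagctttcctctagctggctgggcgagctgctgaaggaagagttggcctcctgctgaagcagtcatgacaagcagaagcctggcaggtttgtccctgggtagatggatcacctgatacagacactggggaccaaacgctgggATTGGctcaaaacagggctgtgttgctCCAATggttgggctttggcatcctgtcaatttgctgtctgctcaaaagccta
Mlxipl, downstream start, chr5:135106641-135106890, plus strand: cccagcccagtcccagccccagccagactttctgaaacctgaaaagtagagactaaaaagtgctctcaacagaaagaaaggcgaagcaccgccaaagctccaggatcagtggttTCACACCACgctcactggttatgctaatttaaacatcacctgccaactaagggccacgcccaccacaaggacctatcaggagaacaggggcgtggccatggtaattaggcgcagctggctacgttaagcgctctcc
Mlxipl, upstream start, chr5:135089640-135089889, plus strand: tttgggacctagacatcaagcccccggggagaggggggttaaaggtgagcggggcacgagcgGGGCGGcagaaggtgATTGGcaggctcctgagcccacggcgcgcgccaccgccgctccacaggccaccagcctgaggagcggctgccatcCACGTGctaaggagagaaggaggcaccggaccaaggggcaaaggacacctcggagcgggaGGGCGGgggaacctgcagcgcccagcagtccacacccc
Acss2, chr2:155517793-155518042, plus strand: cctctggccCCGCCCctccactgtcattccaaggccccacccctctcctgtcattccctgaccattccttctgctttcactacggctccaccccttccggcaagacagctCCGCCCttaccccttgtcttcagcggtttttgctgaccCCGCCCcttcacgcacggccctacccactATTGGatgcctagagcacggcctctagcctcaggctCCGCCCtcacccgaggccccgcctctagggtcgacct
Pnpla3, chr15:84167566-84167815, plus strand: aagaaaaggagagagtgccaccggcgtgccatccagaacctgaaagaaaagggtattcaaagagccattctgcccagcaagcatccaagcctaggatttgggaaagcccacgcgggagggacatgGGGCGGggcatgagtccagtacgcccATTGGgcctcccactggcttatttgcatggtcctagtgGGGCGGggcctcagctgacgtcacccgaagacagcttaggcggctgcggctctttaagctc
The Thrsp stretch holds the CCAAT letters at 2 places and no other motif. The downstream Mlxipl stretch holds the sterol element alone, and the upstream stretch holds the E-box, 1 CCAAT box and 2 GC boxes. The Acss2 stretch has 4 GC boxes and 1 CCAAT box, and the Pnpla3 stretch has 2 GC boxes and 1 CCAAT box. In the same 250 bases none of the 4 motifs was found for Mogat1, which is not printed. The Acaca entry is not printed either: its last letters resemble those before an internal exon, so it may not be a true start, and nothing is read from its motifs, although it is among the 34.

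The labelled tissue was checked first. Of 10 adipocyte markers 8 were measured, and their summed scaled signal (signal after the arrays were brought to a common mean) was 82046 and 93036 on the chow arrays, 76368 and 79925 on the HFD arrays, 95837 and 80190 with telmisartan, and 86621 and 76609 with candesartan. Pparg was the 1 adipocyte marker called lower with HFD. The 8 measured macrophage markers were all called higher with HFD, and their sum went from 16929 and 18665 with chow to 38926 and 40879 with HFD. Of 5 endothelial markers 3 were called lower with HFD, and their sum was 3785 and 2894 with chow and 2037 and 2004 with HFD. All 7 markers of epididymis and testis were below the filter on dim probe sets. In whole tissue, fewer cells of a type and less RNA per cell cannot be told apart, and the part of the macrophage and endothelial differences in the results below was not tested. The deposited signal of the arrays differed in its trimmed mean by up to 1.48 times before scaling.

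The 2 chow mice differed widely in these genes. Chow 1 lay above chow 2 for 25 of the 29 genes, against 50.4% of all genes tested, with a median log2 gap of 0.52 against 0.0035 for all genes. Chow 1 held the highest signal of the 8 arrays for 23 of the 29 genes, against 20.5% of all genes. The SD of the log2 gap over the 29 genes was 0.63 for the chow pair, 0.11 for the HFD pair, 0.32 for telmisartan and 0.23 for candesartan, while over all genes it was 0.44, 0.27, 0.48 and 0.31. The SD leaves out a shift common to the genes, so the median absolute gap was also taken. It was 0.57 for chow (0.22 over all genes), 0.079 for HFD (0.13), 0.37 for telmisartan (0.27) and 0.080 for candesartan (0.15). By this measure the 2 HFD mice were closer in these genes than in genes at large, and the 2 chow mice farther apart. The 29 genes were not matched to all genes by signal level.

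**Figure D1:**
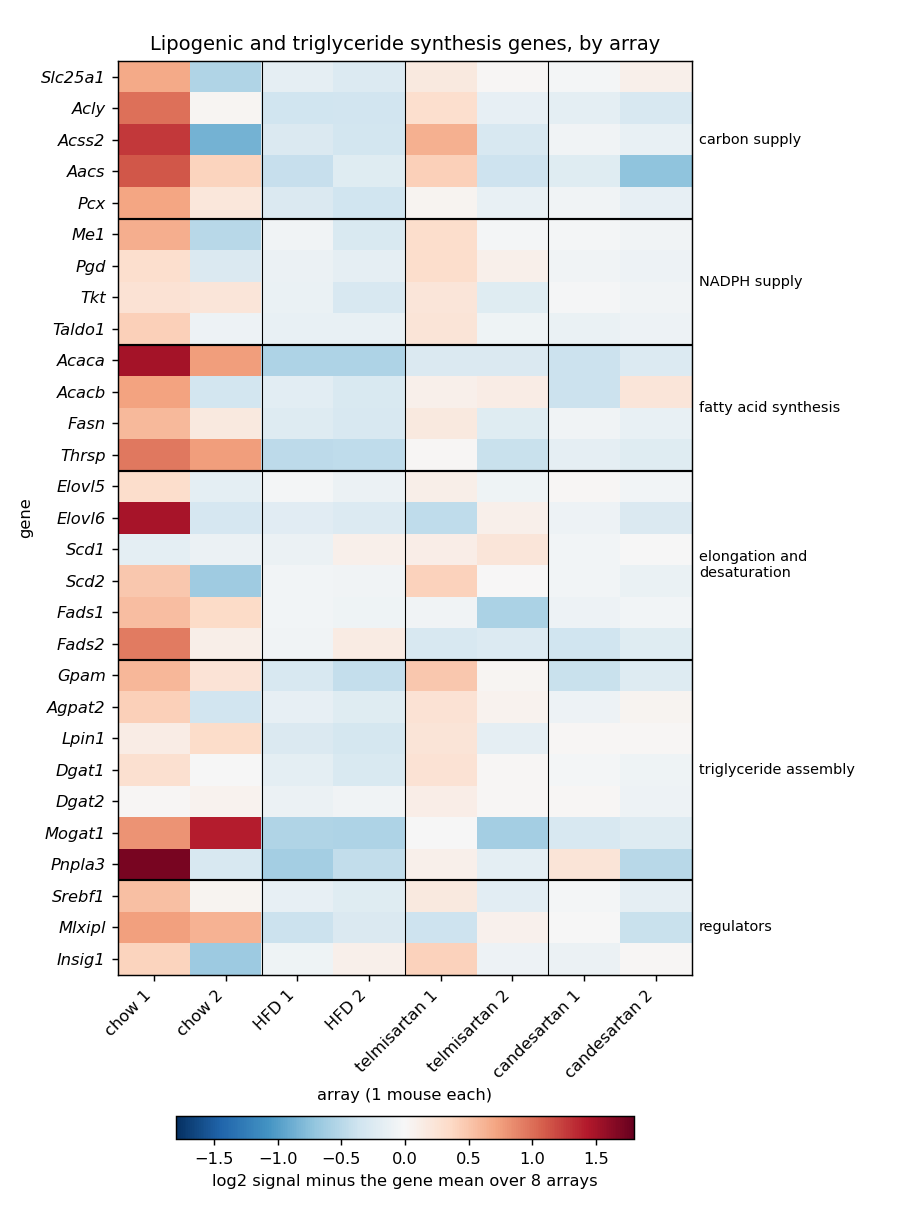
Each row is a gene and each column 1 array (1 mouse), and the colour is the log2 scaled signal minus the mean of that gene over the 8 arrays, with genes grouped by role. Chow 1 is the highest of the 8 arrays for 23 of the 29 genes, while chow 2 differs from it most in Acss2, Pnpla3 and Elovl6.

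The gap was largest for Acss2, the cytosolic enzyme that makes acetyl-CoA from acetate. Its scaled signal was 7981 and 1826 on the chow arrays, 2762 and 2614 on the HFD arrays, 5155 and 2698 with telmisartan, and 3158 and 3013 with candesartan. Chow 2 was the lowest of the 8 mice and chow 1 the highest, a 4.37-fold gap, and the HFD mice lay between them. Pnpla3, a lipid droplet protein with lipase and acyltransferase activity that is raised by feeding, had 1667 and 418 on the chow arrays and 334 and 373 with HFD. Its telmisartan values were 541 and 449 and its candesartan values 596 and 361, so chow 2 stood among the high-fat mice and chow 1 far above all of them. Elovl6, which elongates palmitate to stearate, had 1415 and 411 with chow, 442 and 428 with HFD, 371 and 541 with telmisartan, and 478 and 423 with candesartan. Here too only chow 1 stood apart from the other 7 arrays.

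Other wide gaps, as log2 chow 1 minus chow 2, were 1.22 for Slc25a1, 1.14 for Me1, 1.12 for Scd2, 1.06 for Insig1 and 1.05 for Acacb. Mogat1 went the other way, at −0.60. Srebf1 itself differed less, with 3631 and 2592 on the chow arrays, and Mlxipl differed little, with 608 and 562. Adipocyte markers did not follow chow 1, whose marker sum was 0.882 times that of chow 2. The macrophage marker sum of chow 1 was 0.907 times that of chow 2 and the endothelial sum 1.31 times, and their part in the gap was not tested. The labels of the 2 chow mice differ only in their number.

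The main comparison asked how HFD alone changed these genes against chow. Acaca, Mogat1, Thrsp, Mlxipl, Gpam and Pcx fell, by 1.69 to 3.19 times, and no gene of the list rose. These genes stand at several steps: carbon supply, malonyl-CoA synthesis, triglyceride assembly and transcriptional control. Calls were made with limma where the p adjusted by Benjamini-Hochberg over all 11232 genes was below 0.05, and lower calls made up 2.95% of all genes (331) against 6 of the 29. Of the 29 genes, 26 had a lower mean with HFD, and their median log2 difference was −0.48, against −0.013 for all genes. Both HFD arrays lay below both chow arrays for 17 of the 29, where 30.3% of all genes did so.

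**Figure D2:**
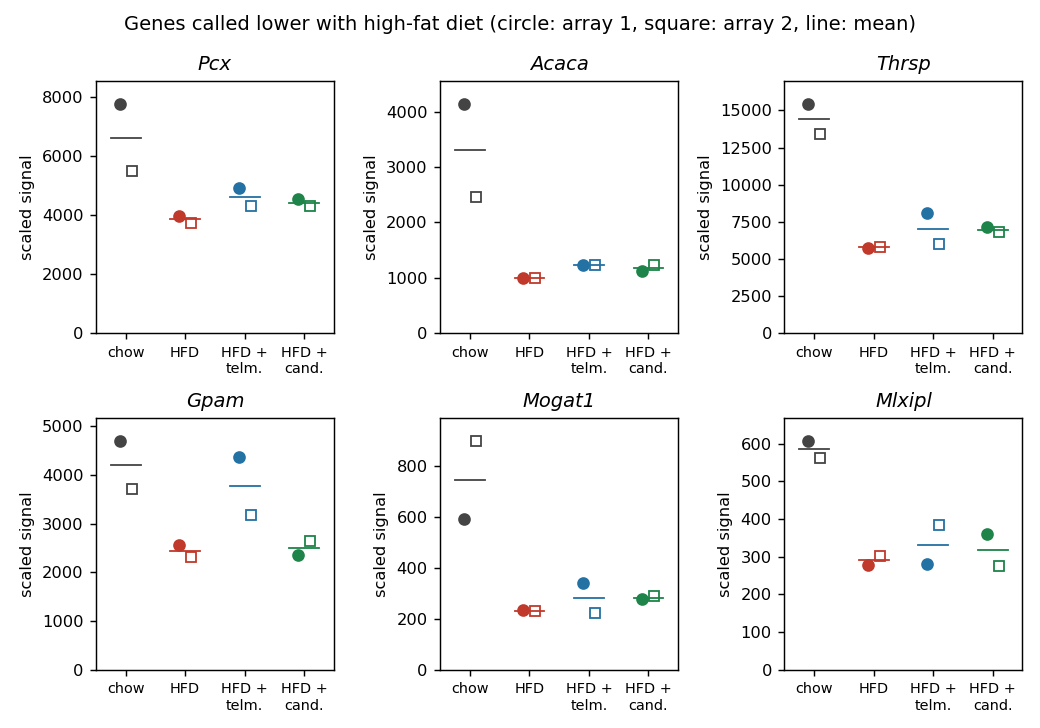
Scaled signal (linear axis from 0) of the 6 genes called lower with HFD, by group, with a circle for array 1, an open square for array 2 and a line at the mean of the 2 arrays. All HFD points lie below both chow points, and so do all drug points for 5 of the 6 genes. Gpam with telmisartan reaches 4367 and 3183, and Pcx on telmisartan 1 (4932) lies nearer to chow 2 (5479) than to HFD.

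Among genes of carbon supply, Pcx was called lower. Pcx, pyruvate carboxylase, makes oxaloacetate that pairs with acetyl-CoA to form citrate. Its scaled signal was 7764 and 5479 with chow, 3982 and 3721 with HFD, 4932 and 4317 with telmisartan, and 4545 and 4299 with candesartan. All 6 high-fat arrays lay below both chow arrays, and the HFD difference was −0.76 on the log2 scale (95% confidence interval −1.13 to −0.39, adjusted p = 0.0281). That call held in 12 of the 21 alternative settings, with adjusted p between 0.00896 and 0.195. It ended without chow 1 (−0.51), without either HFD or either candesartan array, and with median centring, no scaling, no filter or no intensity trend.

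Aacs, which makes acetoacetyl-CoA from ketone bodies, had 2077 and 1269 with chow and 716 and 820 with HFD. Its values were 1286 and 742 with telmisartan and 822 and 581 with candesartan. The HFD mice lay below both chow mice, yet the difference of −1.08 (−1.79 to −0.37) missed the threshold at an adjusted p of 0.0712. Acly, which cleaves citrate to acetyl-CoA, had 9829 and 5059 with chow, 3851 and 3884 with HFD, 6085 and 4465 with telmisartan, and 4388 and 4061 with candesartan. It also separated without overlap and was not called (−0.87, −1.49 to −0.24, adjusted p = 0.0941). For Slc25a1, the mitochondrial citrate carrier, and Acss2 the HFD arrays lay between the chow arrays, with adjusted p of 0.645 and 0.641.

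None of the 4 tested genes of NADPH supply was called, though all 4 means were lower with HFD, at −0.16 to −0.44. Tkt, the transketolase of the pentose phosphate pathway, had 14141 and 13860 with chow, 10958 and 9733 with HFD, 13837 and 10243 with telmisartan, and 11637 and 11397 with candesartan. The 2 chow mice were close here and all 6 high-fat mice were below them, and the HFD difference was −0.44 (−0.76 to −0.12, adjusted p = 0.0977). Pgd, phosphogluconate dehydrogenase, had 9658 and 6517 with chow, 7250 and 6986 with HFD, 9725 and 8323 with telmisartan, and 7486 and 7333 with candesartan. Its HFD arrays lay between the chow arrays, as did those of Me1, the cytosolic malic enzyme, and the differences did not pass (adjusted p = 0.631 and 0.682). Taldo1, transaldolase, differed by −0.29 (adjusted p = 0.344).

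Fatty acid synthesis held the largest fall of the 29 genes. Acaca encodes acetyl-CoA carboxylase, the enzyme that commits acetyl-CoA to fatty acids. Its scaled signal was 4144 and 2469 with chow, 1002 and 1001 with HFD, 1223 and 1224 with telmisartan, and 1125 and 1232 with candesartan. Both chow mice lay far above all 6 high-fat mice, which were close together, and HFD was 3.19-fold lower (log2 −1.67, −2.16 to −1.19, adjusted p = 0.00316). The difference held against either chow mouse, at −2.05 against chow 1 and −1.30 against chow 2.

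Thrsp, a small protein that promotes lipogenesis and answers to thyroid hormone and carbohydrate, had 15435 and 13413 with chow and 5749 and 5817 with HFD. Its values were 8055 and 6007 with telmisartan and 7110 and 6823 with candesartan. Every high-fat mouse lay far below both chow mice, and HFD was 2.49-fold lower (log2 −1.32, −1.64 to −0.99, adjusted p = 0.00175). Thrsp was called in all 21 alternative settings, and Acaca in 20 of 21, the exception being the fit with no filter on dim probe sets.

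Fasn, fatty acid synthase, had 14751 and 11120 with chow, 8423 and 8098 with HFD, 11164 and 8522 with telmisartan, and 9481 and 8983 with candesartan. HFD lay below chow without overlap at −0.63 and missed the threshold narrowly, with an adjusted p of 0.0501. Acacb, the mitochondrial carboxylase whose malonyl-CoA restrains fatty acid oxidation, had HFD arrays (366 and 343) between the chow arrays (686 and 331) and was not called (adjusted p = 0.457).

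The 6 genes of elongation and desaturation gave no call. Scd1, the stearoyl-CoA desaturase of fat tissue, did not share the lower means. It had 16688 and 17442 with chow, 17487 and 20105 with HFD, 20344 and 21835 with telmisartan, and 18163 and 18780 with candesartan. Both chow arrays were the lowest of the 8, by a small margin, and the HFD difference was 0.14 (−0.087 to 0.36, adjusted p = 0.440). A further probe set of Scd1 had the opposite sign, at −0.35, so its direction was not settled. Scd2 differed by 0.024 (−0.66 to 0.71), with HFD between the chow arrays, and Elovl5 by −0.14.

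Elovl6 differed by −0.81 (−1.88 to 0.26, adjusted p = 0.334), with the wide interval that the chow pair gives. Fads1 and Fads2, the desaturases that make polyunsaturated fatty acids, were at −0.51 and −0.48. Fads1 had 841 and 726 with chow, 555 and 544 with HFD, 549 and 387 with telmisartan, and 537 and 552 with candesartan, with all 6 high-fat arrays below both chow arrays (HFD adjusted p = 0.128). Fads2 had 304 and 171 with chow, 152 and 176 with HFD, 130 and 134 with telmisartan, and 124 and 137 with candesartan. On this probe set the 4 drug arrays were the 4 lowest, and HFD overlapped chow (adjusted p = 0.300). On a dimmer probe set of Fads2 both HFD arrays (95 and 106) lay below both chow arrays (227 and 137), at −0.81 without a call.

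All 7 genes of triglyceride assembly had a lower mean with HFD, and Mogat1 and Gpam were called. Mogat1 is a monoacylglycerol acyltransferase, which makes diacylglycerol. Its scaled signal was 593 and 899 with chow, 233 and 230 with HFD, 338 and 222 with telmisartan, and 277 and 289 with candesartan. Unlike most of the other genes, it was higher in chow 2 than in chow 1, and both lay above all 6 high-fat mice. HFD was 3.15-fold lower (log2 −1.66, −2.21 to −1.10, adjusted p = 0.00603). The call held in 18 of 21 settings, and ended without either HFD array and with no filter.

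Gpam, the mitochondrial acyltransferase that starts glycerolipid synthesis, had 4705 and 3707 with chow and 2556 and 2322 with HFD. Its values were 4367 and 3183 with telmisartan and 2351 and 2644 with candesartan. The telmisartan mice overlapped the chow mice and the candesartan mice overlapped the HFD mice. The HFD difference was −0.78 (−1.18 to −0.37, adjusted p = 0.0346). This call held in 11 of the 21 alternative settings. It ended without chow 1 (−0.61), without either HFD or either candesartan array, with median centring, no scaling, no filter or no intensity trend, and with the mean of all probe sets. Pnpla3 differed by −1.24 (−2.46 to −0.026, adjusted p = 0.199), with most of that difference from chow 1: it was −2.24 against chow 1 and −0.24 against chow 2.

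Lpin1, the phosphatidate phosphatase lipin, had 2908 and 3332 with chow, 2206 and 2125 with HFD, 3128 and 2373 with telmisartan, and 2687 and 2686 with candesartan. Its HFD arrays were the lowest of the 8, at −0.52 (−0.86 to −0.19, adjusted p = 0.0681). Dgat1 and Dgat2 catalyse the last step to triglyceride. They differed by −0.36 (adjusted p = 0.151) and −0.13 (adjusted p = 0.456), and Agpat2, the lysophosphatidate acyltransferase mutated in a congenital lipodystrophy, by −0.23 (adjusted p = 0.561).

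Of the 3 regulators, Mlxipl was called. Mlxipl encodes ChREBP, which senses glucose metabolites and switches on lipogenic genes. Its scaled signal was 608 and 562 with chow, 278 and 303 with HFD, 280 and 383 with telmisartan, and 360 and 275 with candesartan. The 6 high-fat mice were all below both chow mice, and HFD was 2.01-fold lower (log2 −1.01, −1.46 to −0.56, adjusted p = 0.0197). The estimate was −1.07 against chow 1 and −0.95 against chow 2, but the call ended when either chow or either HFD array was left out and with no filter, and held in the other 16 of 21 settings.

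Srebf1, which encodes the sterol-regulated factor SREBP, had 3631 and 2592 with chow, 2266 and 2142 with HFD, 2827 and 2181 with telmisartan, and 2430 and 2228 with candesartan. HFD lay below both chow mice without a call (−0.48, −0.90 to −0.058, adjusted p = 0.155). Insig1, which holds SREBP in the endoplasmic reticulum and is itself an SREBP target, had HFD arrays of 1548 and 1735 between chow arrays of 2155 and 1034 (adjusted p = 0.838).

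The weight of the chow pair was seen by setting HFD against each chow mouse alone. The median of the 29 differences was −0.84 against chow 1 and −0.22 against chow 2. HFD lay below both chow mice for 17 genes and between them for 10 (15.6% of all genes lay between): Slc25a1, Acss2, Me1, Pgd, Acacb, Elovl5, Elovl6, Scd2, Agpat2 and Insig1. For 7 genes, Pcx, Tkt, Acaca, Thrsp, Fads1, Mogat1 and Mlxipl, all 6 high-fat mice lay below both chow mice (15.1% of all genes). Over all genes the median difference was −0.017 against chow 1 and −0.010 against chow 2. With HFD 1 left out, the median of the 29 against both chow mice was −0.52, and with HFD 2 left out it was −0.47. The medians of all genes were then −0.0054 and −0.020.

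**Figure D3:**
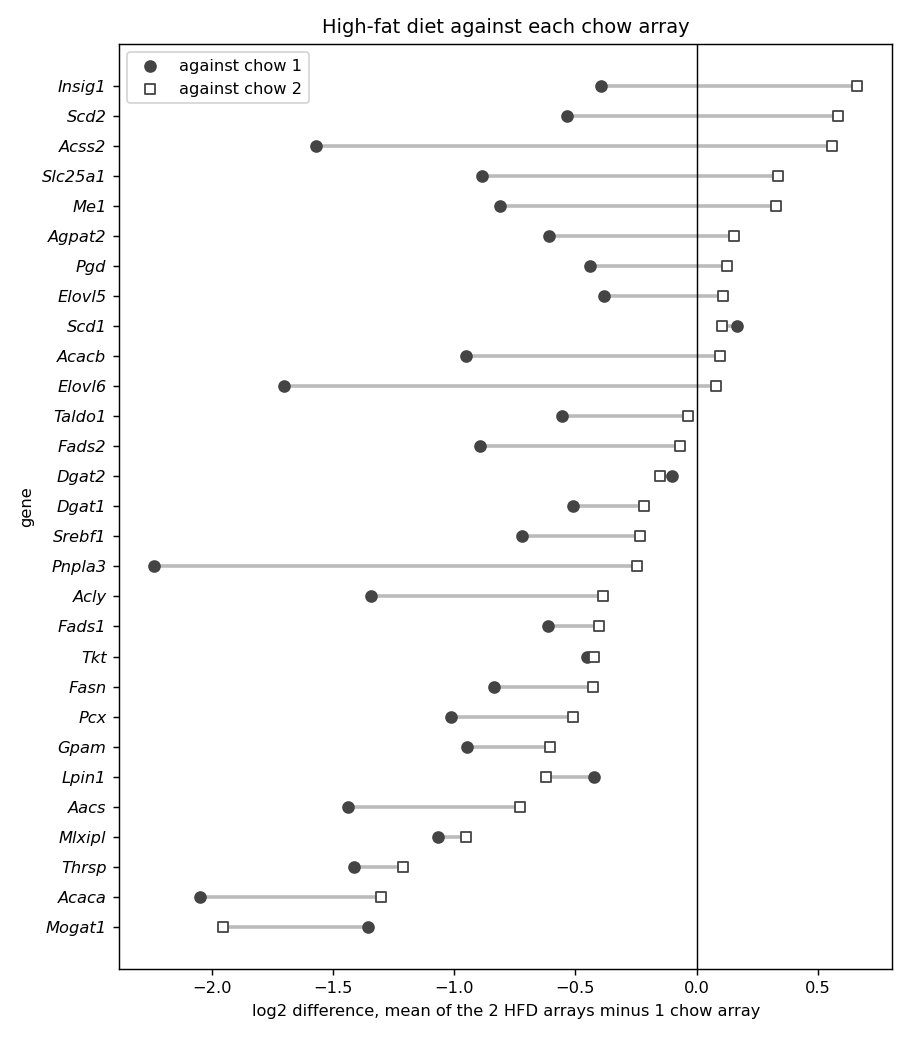
For each gene, the mean log2 signal of the 2 HFD arrays minus that of chow 1 (filled circle) or chow 2 (open square), with a grey line joining both, ordered by the value against chow 2. Mogat1, Acaca, Thrsp and Mlxipl lie at or below −0.95 against both chow mice, while Acss2 moves from −1.57 to 0.56.

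Probe sets of the same gene were compared in a fit over 19710 probe sets. Of the 53 probe sets of these genes in it, 9 from 7 genes were called lower with HFD and none higher (1.99% of all probe sets were called lower). Both probe sets of Acaca in the fit were called, at −1.67 and, on the dimmer one, −1.52, and both of Thrsp, at −1.32 and −1.88. Tkt was called through a dimmer probe set (−0.95, adjusted p = 0.0180) that was not the one used above. Of 18 genes with more than 1 probe set in the fit, 15 had the same sign on all, and Scd1, Scd2 and Fads1 did not. Pcx has 4 further probe sets that are array controls and were left out.

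Neighbouring genes of the pathway were taken from a list of 50 names, of which 41 were tested. With HFD 4 of the 41 were called lower and none higher, where 2.95% of all genes were called lower. Their median was −0.11, against −0.013 for all genes. Slc2a4, the insulin-sensitive glucose transporter, had 1615 and 1673 with chow and 467 and 546 with HFD (log2 −1.70, −2.26 to −1.15, adjusted p = 0.00514). With the drugs it had 757 and 449 (telmisartan) and 710 and 538 (candesartan), all below both chow mice. Gpat3 and Gpat4, the microsomal counterparts of Gpam, fell by 0.98 and 0.81 on the log2 scale (adjusted p = 0.0256 and 0.0415). Prkaa1, a catalytic subunit of the kinase AMPK that phosphorylates acetyl-CoA carboxylase, fell by 1.02 (adjusted p = 0.0493).

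The next question was whether either drug moved these genes from their HFD level. With telmisartan no gene of the list was called, and none of all 11232 (0%). At an unadjusted p under 0.05 there were 2 of the 29, Gpam and Dgat1, and 696 of all genes. Of the 29 genes 27 had a higher mean than with HFD alone, with a median log2 difference of 0.26 against −0.0078 for all genes. Both telmisartan arrays lay above both HFD arrays for 18 of the 29, against 18.5% of all genes. Fads2 was the 1 gene with both telmisartan arrays below both HFD arrays, against 19.5% of all genes. A dimmer probe set of Fads2 did not share this, with 95 and 106 on the HFD arrays and 119 and 101 with telmisartan.

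Gpam differed by 0.61 between telmisartan and HFD (0.21 to 1.02, unadjusted p = 0.0079, adjusted p = 0.766). Dgat1 had 3638 and 2967 with chow, 2643 and 2464 with HFD, 3579 and 3018 with telmisartan, and 2900 and 2813 with candesartan. Both telmisartan mice lay within the range of the chow mice and above both HFD mice on this probe set. The difference from HFD was 0.37 (0.049 to 0.68, unadjusted p = 0.0285, adjusted p = 0.766). A dimmer probe set of Dgat1 went the other way, with 130 and 158 on the HFD arrays and 120 and 85 with telmisartan. The direction for Dgat1 was thus not settled. Acaca differed by 0.29 (−0.20 to 0.77), Thrsp by 0.27 (−0.063 to 0.60) and Mlxipl by 0.17 (−0.28 to 0.62). For these 3 genes the telmisartan mice stayed below both chow mice, and the intervals include 0.

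The 2 telmisartan mice were also unequal: telmisartan 1 was above telmisartan 2 for 23 of the 29 genes, by a median of 0.31, against 48.6% of all genes. Macrophage markers summed to 34014 and 45582 on these arrays, the lower sum on the array with the higher lipogenic signals. The part of that difference in the result was not tested. Without telmisartan 1 the median difference from HFD was 0.12, and 0.42 without telmisartan 2. It also moved with the scaling, to 0.54 with arrays centred on their median and to 0.036 with no scaling. The median of all genes moved by the same amount, to 0.26 and −0.24. The 29 genes stood 0.27 above all genes in each of these 3 settings. The 3 settings differ by 1 factor per array, so this value could hardly change between them. Quantile normalization can change it, and the 29 genes then stood 0.11 above all genes.

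With candesartan no gene of the list was called against HFD, and none of all genes (0%). At an unadjusted p under 0.05 there were 0 of the 29 and 140 of all genes. The mean was higher than with HFD for 23 of the 29, the median difference was 0.12, and 15 of the 29 had both candesartan arrays above both HFD arrays, against 17.9% of all genes. The median was 0.27 with median centring, where that of all genes was 0.16, and 0.070 without candesartan 1. The largest differences were 0.39 for Pnpla3 (−0.82 to 1.61) and 0.31 for Lpin1 (−0.027 to 0.65), and −0.32 for Fads2 (−0.92 to 0.27). Acaca differed by 0.23 (−0.25 to 0.72), Thrsp by 0.27 (−0.061 to 0.60), Gpam by 0.034 (−0.37 to 0.44) and Mlxipl by 0.12 (−0.33 to 0.57). Both drug comparisons use the same HFD arrays, so their like signs are not separate evidence.

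**Figure D4:**
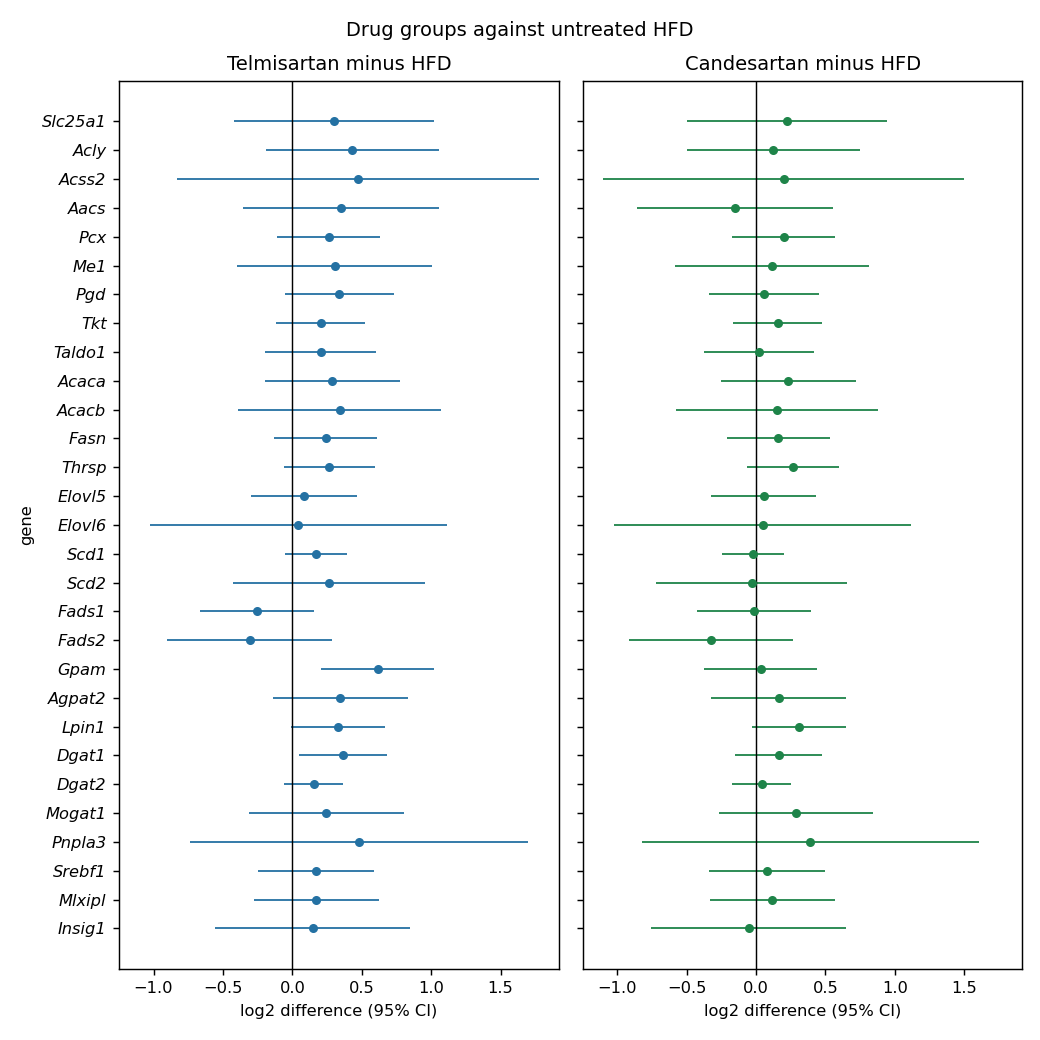
Log2 difference of each drug group from HFD alone (points, mean of 2 arrays minus mean of 2 arrays) with 95% confidence intervals from limma (lines), telmisartan on the left and candesartan on the right. The intervals of Gpam and Dgat1 with telmisartan lie above 0 before adjustment, and all others cross 0.

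The drugs were then set against each other at their common dose and time, 1 pair of compounds. Both join a benzimidazole to a biphenyl group, which carries a tetrazole in candesartan and a carboxylic acid in telmisartan. No gene of the list was called, and none of all genes (0%). At an unadjusted p under 0.05 there were 1 of the 29 and 550 of all genes. That gene was Gpam, 0.58 higher with telmisartan (0.17 to 0.99, unadjusted p = 0.0106, adjusted p = 0.924). Both telmisartan arrays lay above both candesartan arrays for 9 of the 29 genes, against 15.6% of all genes.

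Telmisartan had the higher mean for 25 of the 29 genes, with a median of 0.094, and for 6 of the 29 with no scaling, with a median of −0.16. The median of the 29 was 0.21 with median centring, 0.26 without telmisartan 2, and 0.024 without telmisartan 1, where 16 of the 29 were higher. Those of all genes were 0.11, −0.0098 and 0.0019, in the same order. The difference was −0.0018 for Thrsp (−0.33 to 0.33), 0.055 for Acaca (−0.43 to 0.54) and 0.057 for Mlxipl (−0.39 to 0.51). It was −0.045 for Mogat1 (−0.60 to 0.51). These intervals span 0 and are wide, so likeness of the drugs is not shown.

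Each drug group was last compared with chow, which uses the same chow arrays as the HFD comparison. With telmisartan 5 of the 29 genes were called lower and none higher: Acaca, Mogat1, Thrsp, Mlxipl and Fads1 (3.48% of all genes were called lower). Acaca differed by −1.39 (−1.87 to −0.90, adjusted p = 0.00757), Mogat1 by −1.41 (adjusted p = 0.0111), Thrsp by −1.05 (adjusted p = 0.00491), and Mlxipl and Fads1 by −0.84 and −0.76 (both adjusted p = 0.0366). The Fads1 call held in 8 of the 21 alternative settings and the Mlxipl call in 10, and both ended without either chow array. The dimmer probe set of Fads1, at −0.45, was not called. The calls of Acaca and Thrsp held in 19 settings each and that of Mogat1 in 18. Gpam was at −0.16 (−0.57 to 0.24) and Dgat1 at 0.00053 (−0.32 to 0.32). The dimmer probe set of Dgat1, with 175 and 251 on the chow arrays and 120 and 85 with telmisartan, gave −1.06 instead. The median of the 29 was −0.19, against −0.030 for all genes. Without chow 1 it was 0.043, against −0.027 for all genes.

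With candesartan 5 of the 29 were called lower than with chow and none higher: Acaca, Mogat1, Thrsp, Mlxipl and Gpam (2.11% of all genes were called lower). Acaca differed by −1.44 (adjusted p = 0.00647), Mogat1 by −1.37 (adjusted p = 0.0156), Thrsp by −1.05 (adjusted p = 0.00505), Mlxipl by −0.89 (adjusted p = 0.0339) and Gpam by −0.74 (adjusted p = 0.0443). The calls held in 18 of 21 settings for Acaca and Thrsp, 17 for Mogat1, 12 for Mlxipl and 9 for Gpam. Aacs had the largest uncalled difference, −1.23 (−1.94 to −0.53, adjusted p = 0.0528). The median of the 29 was −0.31, with −0.34 without either candesartan array, −0.11 without chow 1 and −0.68 without chow 2. For all genes the median was −0.018, and −0.027 to −0.012 in these fits. Higher calls made up 68.0% of all calls here, 58.8% with telmisartan and 63.6% with HFD, and with median centring 85.5%, 88.5% and 72.7%. With no scaling the share for telmisartan was 15.9%. The 5 genes of each drug group had negative differences under every scaling tried.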

How the data were processed

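The authors deposited 1 signal intensity, on a linear scale, for each probe set and array, computed with the array maker's GeneChip Analysis Suite per the labels and design text. How it was summarised and scaled is not given in the sources used. The 2%-trimmed means of the arrays were made equal, values below the 20th percentile (6.69) were raised to it, and log2 values were used. The dimmer 50% of probe sets by mean log2 signal were left out, and each gene was represented by its brightest probe set with 1 symbol (platform annotation). Differences came from limma 3.58.1 in R 4.3.3 with 4 group means over 8 arrays, moderated variances with an intensity trend, two-sided tests and Benjamini-Hochberg adjustment over 11232 genes at 0.05. Half-widths of the 95% intervals had a median of 0.44. The fit was checked on simulated data. Promoters were searched with Python 3.11.15.

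Values on all arrays are given for genes called in any comparison and for those with the largest differences in each role. Values on all arrays for Acss2, Elovl6, Fasn, Scd1, Lpin1 and Dgat1 were added after their values were seen where that rule did not name them. The genes, the lists and the tests were chosen with earlier results of these data known. Replicate numbers name separate mice, and the labels pair none across groups. Alternatives changed scaling, floor, filter, variance model, probe set rule, the samples fitted and the arrays left out.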

Additional observations from a re-analysis of the deposited data

How the results depend on the processing

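Of 3654 values of single genes under alternative settings, 3304 kept direction and side of the threshold, 90 lost and 68 gained a call, 191 changed sign without a call, and 1 reversed. That was Dgat1 in telmisartan against chow with the probe set of largest interquartile range (−1.06). Calls with HFD against chow were 909 over all genes, and 575 with median centring, 174 with no filter and 165 to 1611 with 1 array left out. Over probe sets they were 1178, and 775, 158 and 162 to 2301, with 735 without the intensity trend. For the 29 genes they were 6, and 1 with no filter, 10 with only the 2 groups, 10 with the replicate block and 2 to 13 with 1 array left out, with a median of −0.84 to −0.22. For telmisartan against chow the calls were 948 and 5 in the list. They were 2045 and 8 with no scaling, 332 and 0 with no filter, and 198 and 1 with only the 2 groups. They were 528 to 1683 and 3 to 7 with 1 array left out, and in the list 2 with median centring and 3 without the trend. The list's median was −0.54 with no scaling and −0.59 to 0.043 with 1 array left out. For candesartan against chow the calls were 740 and 5. They were 164 and 0 with no filter, 117 to 1315 and 0 to 9 with 1 array left out, and in the list 2 with median centring, 3 without the trend and 8 with the replicate block, and the median was −0.68 to −0.11. With no filter 4 genes were called for telmisartan against HFD, 6 for candesartan against HFD and 6 for telmisartan against candesartan, where no scaling called 1. The medians of the list were 0.54 (median centring) and 0.036 (no scaling) for telmisartan against HFD, and −0.16 (no scaling) for telmisartan against candesartan. Those of all genes were 0.26, −0.24 and −0.26, in the same order. Where only the list's count is given above, calls over all genes moved too. For HFD against chow they were 1189 with only the 2 groups and 1280 with the replicate block. For telmisartan against chow they were 720 with median centring and 765 without the trend. For candesartan against chow they were 572 with median centring, 566 without the trend and 973 with the replicate block. The cause of these changes was not tested.

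The labels name no source shared by arrays of the same number, so the replicate block groups arrays by number only. Deviations of arrays with the same number correlated at −0.041 to 0.21 between groups, which cannot show whether a processing step was shared. Array 1 lay above array 2 for 25 (chow), 20 (HFD), 23 (telmisartan) and 18 (candesartan) of the 29 genes. Over all genes the shares were 50.4%, 49.4%, 48.6% and 51.6%. The part of a shared factor in this was not tested. A lone array left in a group was assumed to vary like the others. The 2 arrays per group, and dim probe sets, limit what could be called.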

Other observations

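Some neighbouring pathway genes, chosen after their values were seen, repeated the gap between the chow mice. Tecr, the reductase of fatty acid elongation, had 6760 and 2620 on the chow arrays and 4704 and 4462 with HFD. Mid1ip1, a relative of Thrsp that promotes polymerization of acetyl-CoA carboxylase, had 3368 and 1321 with chow, and 1253 and 1365 with HFD. Acsl3, an acyl-CoA synthetase of lipid droplets, had 361 and 101 with chow, and 225 and 228 with HFD. None of the 3 was called with HFD (adjusted p = 0.879, 0.278 and 0.795). Slc2a4 did not share the gap, with 1615 and 1673. Over the 41 neighbouring genes chow 1 was above chow 2 for 23, with a median gap of 0.051.

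The mesothelial markers Msln, Upk3b, Krt19 and Wt1 summed to 440 on the telmisartan 1 array and 1711 on telmisartan 2, and to 1684 and 2237 with HFD. Telmisartan 1 is also the array with the higher lipogenic signals of its pair, and the part of this difference in the result was not tested.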
